A study of Danio rerio with 8 samples.

Results

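The 10 immediate early genes *fosab*, *fosb*, *junba*, *junbb*, *jun*, *egr1*, *atf3*, *ier2a*, *npas4a* and *btg2* were followed across sorted hindbrain vestibular neurons of *phox2a* null zebrafish larvae and their siblings. They were taken by symbol from a table of 28802 genes, and all 10 had a row. The list was drawn up because genes induced by cell dissociation had been seen to be lower in *phox2a* null larvae in these same libraries, so the counts used below are also the counts that chose the genes. The genotype difference of the 10 genes is therefore given as a description, without a test, and the choice involved no threshold.

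Immediate early genes are transcribed within minutes of a stimulus, without the need for new protein synthesis. In neurons the stimulus can be calcium entry during electrical activity, and in many cell types it can be growth factor signaling, injury or enzymatic dissociation of the tissue. The kinases ERK, JNK and p38 and the calcium-dependent kinases act on factors already present in the cell, such as CREB, SRF and Elk1, which switch these genes on. Fos and Jun proteins pair to form the AP-1 transcription factor, Egr1 and Npas4 are further inducible transcription factors, and other members of the response limit it.

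Bulk RNA sequencing had been performed on 8 libraries from larvae of 72 to 74 hpf, and each of 4 experimental repeats had given 1 library of *phox2a* null larvae and 1 of siblings. Null larvae were *phox2a*-/- and siblings were *phox2a*+/+ or +/-, so the siblings mix wildtype and heterozygous larvae. Larvae of both genotypes carried *Tg(-6.7Tru.Hcrtr2:GAL4-VP16)*, which drives Kaede through *Tg(UAS:E1b-Kaede)* in vestibular projection neurons and other neurons, together with *Tg(isl1:GFP)*, which labels cranial motor neurons. By the study's methods, null larvae were recognized by their missing oculomotor and trochlear motor neurons, larvae were pooled, the hindbrain tissue was dissociated with enzymes before the sort, and the sort gate took any green cell, whether labeled by Kaede or by GFP. Each library is thus a pool, and the spread between libraries of a genotype covers both animals and handling. The repeats are lettered A to D here in the order of the run codes of the columns, and repeats A to C were used for the comparison.

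Gene reads per library in repeats A to C were 9579375 to 16992689 for null larvae and 18657956 to 19968857 for siblings. The null library of repeat C (null C) stood apart. In it 62.4% of the listed reads had not been aligned, against 11.8% to 16.1% in the other 5 libraries, and it had reads for 11087 genes, against 16675 to 18409 in those 5. Of the 9166 genes with a sibling mean of at least 10 normalized counts-per-million (CPM), 1720 (18.8%) had 0 reads in that library. In repeat D the null library had 735217 gene reads over 2214 genes, and the sibling library had 15865368 gene reads but only 6211 genes detected, so this repeat is given by its reads alone. The targeted gene *phox2a* had 1015 to 2811 reads in null libraries and 4151 to 9465 in the corresponding sibling libraries. Its normalized CPM was lower in null larvae in 2 of 3 repeats (log2 fold change -1.22, SE 0.62, edgeR adjusted p = 1.00). In repeat C null and siblings stood at 206 and 201 normalized CPM, with null C scaled by a TMM factor of 0.518. As a share of gene reads *phox2a* was lower in null C, with 1015 of 9579375 against 4151 of 18657956. Neuronal markers summed to 8410 to 16370 normalized CPM in null libraries, the highest in null C, and 6993 to 9561 in sibling libraries. In CPM of gene reads they summed to 8413 to 9609 in null libraries, the lowest in null C, and 8423 to 11060 in sibling libraries. Neuronal markers were thus present in both genotypes.

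A negative log2 fold change over repeats A to C was found for 9 of the 10 genes, and *fosb* and *junba* were the farthest below siblings. Over all 14824 genes tested 55.9% had a negative value. The median log2 fold change was -1.15 for the 10 genes and -0.15 for all genes tested. In 4 of them, *fosb*, *junba*, *jun* and *atf3*, every null library was below every sibling library, which held for 7.52% of all genes tested. These counts come from the contrast that chose the genes and nothing is read from the gap. In edgeR's quasi-likelihood test with Benjamini-Hochberg adjustment, 0 of the 14824 genes (0%) met the rule for a call, which asks for a log2 fold change beyond 2 in either direction together with an adjusted p under 0.05. At an unadjusted p under 0.05, 113 genes were lower and 364 higher in null larvae. That balance depended on the scaling and on single libraries, with 111 lower and 122 higher for gene reads alone, 58 and 43 with the repeat as a block, 387 and 288 without null C, and 193 and 106 without sibling C. DESeq2 called 128 of 23680 genes (0.541%), a total that includes genes to which it gave no adjusted p. None of the 10 was called, and *btg2* had no adjusted p there, so it could not be called. In such bulk samples, fewer cells of a type and less RNA per cell cannot be told apart.

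**Figure D1:**
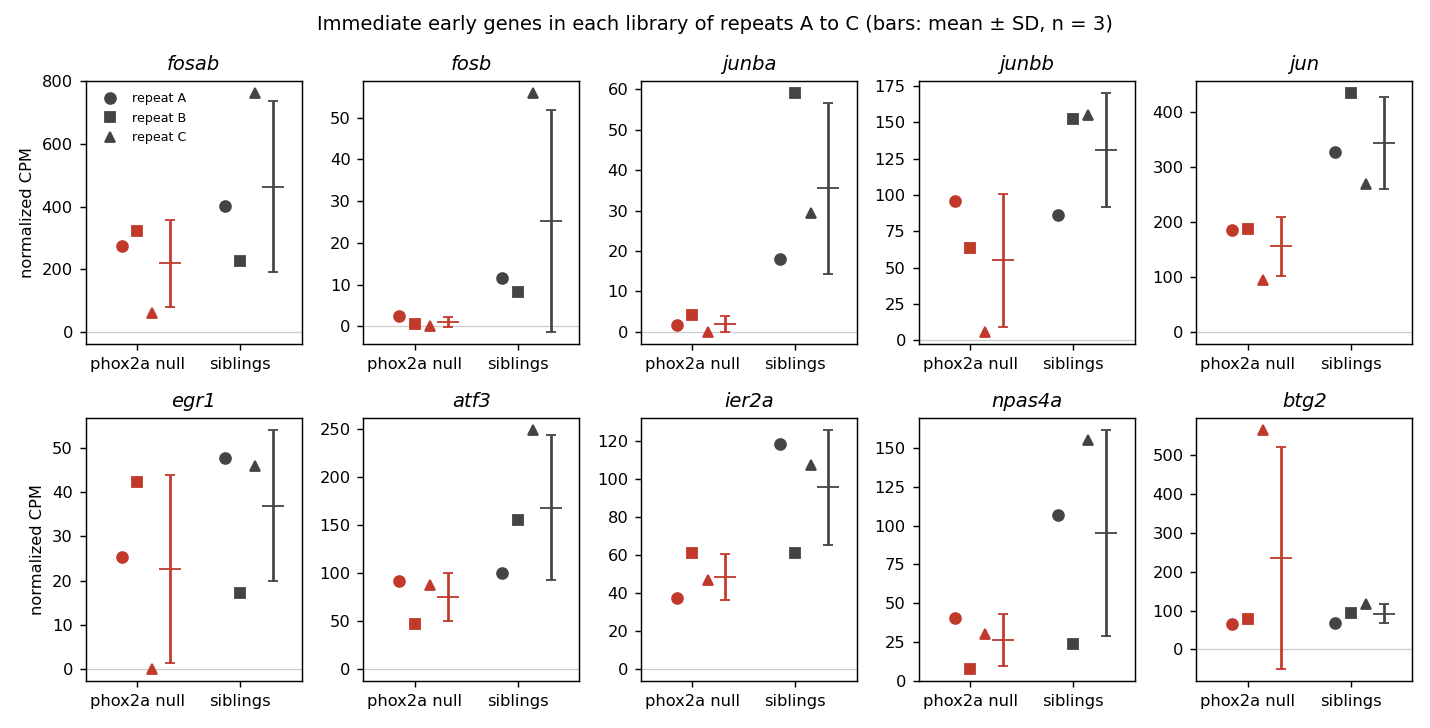
Normalized CPM (vertical axes, 1 scale per gene) of each gene in the libraries of repeats A to C, with *phox2a* null larvae on the left, siblings on the right, marker shape for the repeat, and bars for the mean ± SD (n = 3 each). *jun* reached 94.5 to 187 normalized CPM in null larvae against 269 to 435 in siblings, while *btg2* stood at 566 in 1 null library.

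Of the Fos genes, *fosb* had the larger difference. It encodes FosB, a partner of Jun proteins in AP-1. *fosb* had 45, 10 and 0 reads in null larvae of repeats A, B and C, against 267, 190 and 1156 in siblings. In normalized CPM these were 2.39, 0.603 and 0 in null larvae, against 11.6, 8.22 and 55.9 in siblings. Every null library was below every sibling library, and the mean was 0.998 ± 1.24 normalized CPM in null larvae and 25.2 ± 26.6 in siblings (SD, n = 3 each). The log2 fold change was -4.60 (SE 1.70). It was -4.08 without null C, -3.29 without sibling C and -2.73 with repeats A and B only. The 0 reads of null C allow up to 0.610 normalized CPM by counting error alone, and since many expressed genes are at 0 in that library no fold is given for repeat C.

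*fosab*, the zebrafish counterpart of mammalian *Fos*, did not keep a direction across repeats. Its levels were 275, 323 and 62.8 normalized CPM in null larvae of repeats A, B and C, against 401, 227 and 762 in siblings. Null larvae were lower in repeats A and C and higher in repeat B, so the groups overlapped. The mean was 220 ± 139 normalized CPM in null larvae and 464 ± 273 in siblings (SD, n = 3 each), a log2 fold change of -1.07 (SE 0.73). It was -0.64 without null C, and -0.08 with repeats A and B only.

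The Jun genes code for the partners of Fos in AP-1. *junba* and *junbb* are the duplicated zebrafish copies of JunB. *junba* had 31, 67 and 0 reads in null larvae of repeats A, B and C, against 415, 1366 and 609 in siblings. Its normalized CPM was 1.65, 4.04 and 0 in null larvae, against 18.0, 59.1 and 29.5 in siblings. Every null library was below every sibling library. The mean was 1.90 ± 2.03 normalized CPM in null larvae and 35.5 ± 21.2 in siblings (SD, n = 3 each). The log2 fold change was -4.20 (SE 1.52), and -3.66 without null C. Within repeats A and B *junba* was 10.9-fold and 14.6-fold lower in null larvae.

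*junbb* did not separate the genotypes in the same way. Its levels were 95.8, 63.6 and 5.49 normalized CPM in null larvae of repeats A, B and C, against 86.0, 152 and 155 in siblings. In repeat A the null library was the higher of the pair. The log2 fold change was -1.25 (SE 0.92), and -0.73 without null C. How reads that match both copies of a gene were assigned is not given in the sources used here. To that extent the split of reads between *junba* and *junbb*, and between *fosab* and its copy *fosaa*, is uncertain.

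*jun*, which encodes c-Jun, the substrate of JNK, was lower in null larvae in every repeat. It stood at 187, 187 and 94.5 normalized CPM in null larvae of repeats A, B and C, against 327, 435 and 269 in siblings. All 3 null libraries were below all 3 sibling libraries. The mean was 156 ± 53.4 normalized CPM in null larvae and 344 ± 84.1 in siblings (SD, n = 3 each). In edgeR the log2 fold change was -1.14 (SE 0.52), and -0.89 without null C.

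*egr1* encodes a zinc finger transcription factor induced by activity and growth factors. Its levels were 25.4, 42.4 and 0 normalized CPM in null larvae of repeats A, B and C, against 47.8, 17.2 and 46.0 in siblings. The direction differed between repeats, with null larvae lower in A and C and higher in B. The log2 fold change of -0.71 (SE 1.51) rested on null C. It was -0.14 without that library, 0.05 with repeats A and B only and -1.55 with the repeat as a block.

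*npas4a* encodes a transcription factor that in mammals is largely restricted to neurons and is induced by calcium entry. It had 757, 125 and 148 reads in null larvae of repeats A, B and C, against 2471, 543 and 3211 in siblings. In normalized CPM it stood at 40.3, 7.53 and 30.1 in null larvae, against 107, 23.5 and 155 in siblings. It was lower in null larvae within every repeat, by 2.66-fold, 3.12-fold and 5.16-fold in A, B and C. The groups still overlapped, since sibling B was below 2 of the null libraries. Its log2 fold change was -1.88 (SE 0.93). It was -2.01 without null C, -2.41 without null A and -1.37 without sibling C.

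*atf3* encodes a member of the ATF/CREB family that is induced by cell stress and, in neurons, by axon injury. Its levels were 91.1, 46.3 and 87.8 normalized CPM in null larvae of repeats A, B and C, against 99.6, 155 and 249 in siblings. The groups did not overlap, but in repeat A the pair differed by only 1.09-fold. The mean was 75.1 ± 24.9 normalized CPM in null larvae and 168 ± 75.7 in siblings (SD, n = 3 each). In edgeR the log2 fold change was -1.16 (SE 0.60), and -1.30 without null C.

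*ier2a* encodes a nuclear protein of the immediate early response. It stood at 37.2, 61.1 and 46.9 normalized CPM in null larvae of repeats A, B and C, against 118, 61.0 and 107 in siblings. The pair of repeat B was level, and the pairs of A and C were 3.18-fold and 2.28-fold lower in null larvae. In repeat C its log2 ratio of -1.19 was a smaller drop than the median of all genes tested there, -1.34. Its log2 fold change was -0.98 (SE 0.60), and -0.97 without null C.

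*btg2*, an antiproliferative gene of the BTG/Tob family, was the only one of the 10 with a positive log2 fold change. Its levels were 64.0, 76.9 and 566 normalized CPM in null larvae of repeats A, B and C, against 66.8, 93.9 and 116 in siblings. A single library, null C, was far above the other 5, and in repeats A and B null larvae were slightly lower. In CPM of gene reads, without the TMM factors, *btg2* stood at 291 in null C and 71 to 128 in the other 5. The log2 fold change of 1.35 (SE 0.89) was 0.49 with gene reads alone. It turned to -0.40 without null C, so that all 10 genes then had a negative value. So had 51.7% of the 16687 genes tested without null C.

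**Figure D2:**
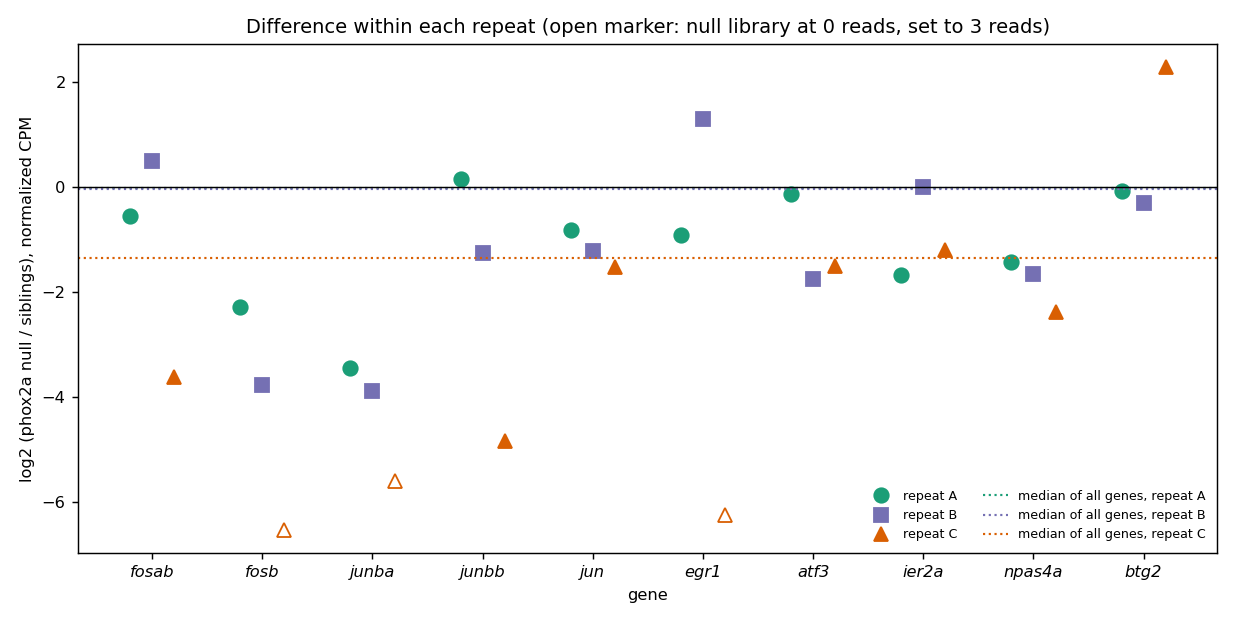
Log2 ratio of *phox2a* null to sibling normalized CPM (vertical axis) within repeats A, B and C for each gene, with dotted lines at the median of all genes tested in each repeat and open markers where the null library had 0 reads and was set to 3, a limit for counting error only. *fosb*, *junba*, *jun*, *atf3* and *npas4a* lie below 0 in 3 of 3 repeats, and the median of all genes in repeat C is itself at -1.34.

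Within repeats, the 10 genes had a median log2 ratio of null to siblings of -0.86 in A, -1.24 in B and -2.99 in C. All genes tested had medians of -0.01, -0.03 and -1.34. The median of all genes was thus below 0 in repeat C and near 0 in repeats A and B. Of 14126 genes with a ratio in repeat C, 9289 were lower in null larvae and 4837 higher, 3364 of these more than 2-fold. In repeat C *jun* and *atf3*, both at -1.51, lay close to the median of all genes, and *ier2a* at -1.19 lay above it. More than 2-fold lower in null larvae were 4 of the 10 genes in A, 6 in B and 9 in C, against 16.3%, 24.6% and 54.0% of all genes. The 5 genes *fosb*, *junba*, *jun*, *atf3* and *npas4a* were lower in 3 of 3 repeats, as were 17.7% of all genes. Null C was the lowest of the 6 for 6 of the 10 genes, and for 53.4% of all genes tested.

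The 10 genes also differed among the sibling libraries, whose mix of wildtype and heterozygous larvae is not known. Sibling B, the sibling library of repeat B, was the lowest of the 3 for *fosab*, *fosb*, *egr1*, *ier2a* and *npas4a*. The mean of siblings A and C exceeded it by 5.58-fold for *npas4a*, by 4.10-fold for *fosb* and by 2.73-fold for *egr1*. *junba* and *jun* ran the other way and were highest in sibling B, 2.49-fold and 1.46-fold above the mean of the other two. Sibling C was the highest of the 3 for 6 of the 10 genes, against 32.7% of all genes tested. The genes of the list therefore did not share a single order across sibling libraries. Across the 3 siblings the median ratio of the highest to the lowest library was 2.64 for the 10 genes and 2.22 for all genes tested.

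**Figure D3:**
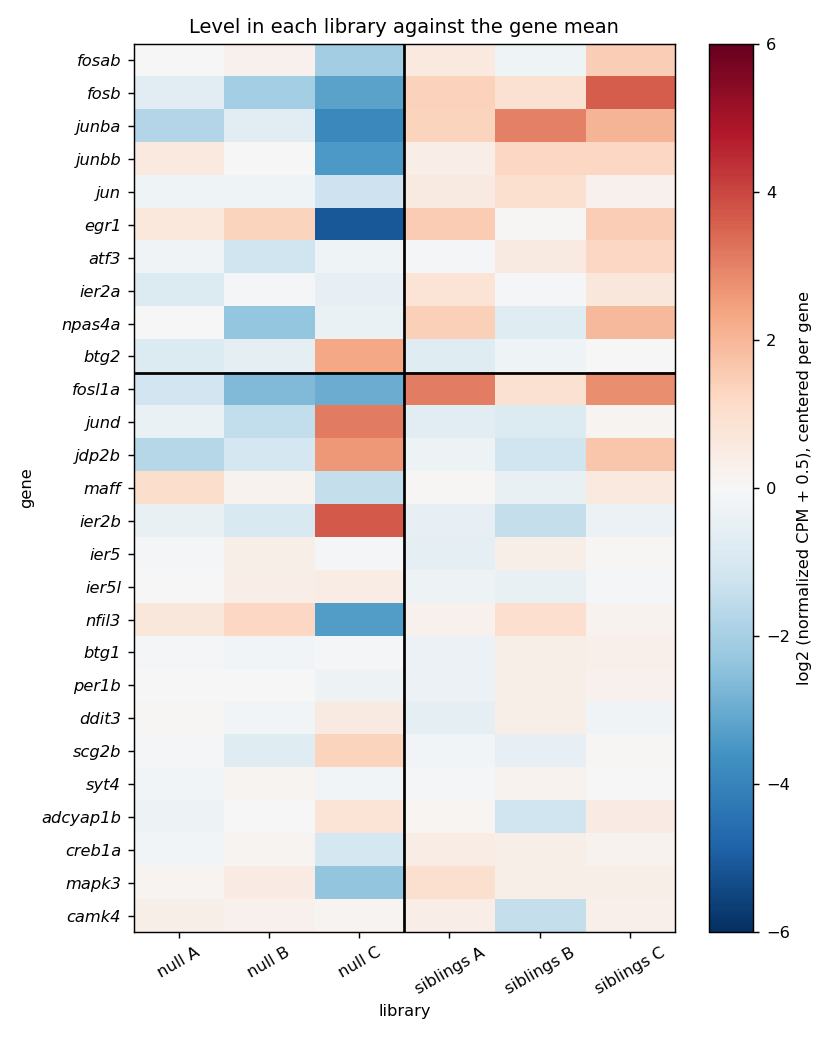
Log2 of normalized CPM plus 0.5, centered on the mean of each gene, for the 10 genes (above the line) and 17 related genes chosen by a fixed rule (below it), with the *phox2a* null libraries left and the sibling libraries right. *fosl1a* is low in the 3 null libraries, as *fosb* and *junba* are, while *jund*, *jdp2b* and *ier2b* are high in null C.

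Repeat D gave uneven reads for these genes. Its null library had 269 reads of *fosab*, 1 each of *junbb* and *btg2* and 0 of the other 7, with a limit of 4.08 CPM of gene reads for a gene at 0. Its sibling library had 2 reads of *fosab* and 0 of *junba*, *junbb*, *egr1* and *npas4a*, but 7206 of *atf3*, 2335 of *jun*, 1793 of *btg2*, 1464 of *ier2a* and 452 of *fosb*. Presence and absence in that repeat thus went gene by gene in both genotypes. Adding it turned the log2 fold change of *fosab* to 2.44.

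**Figure D4:**
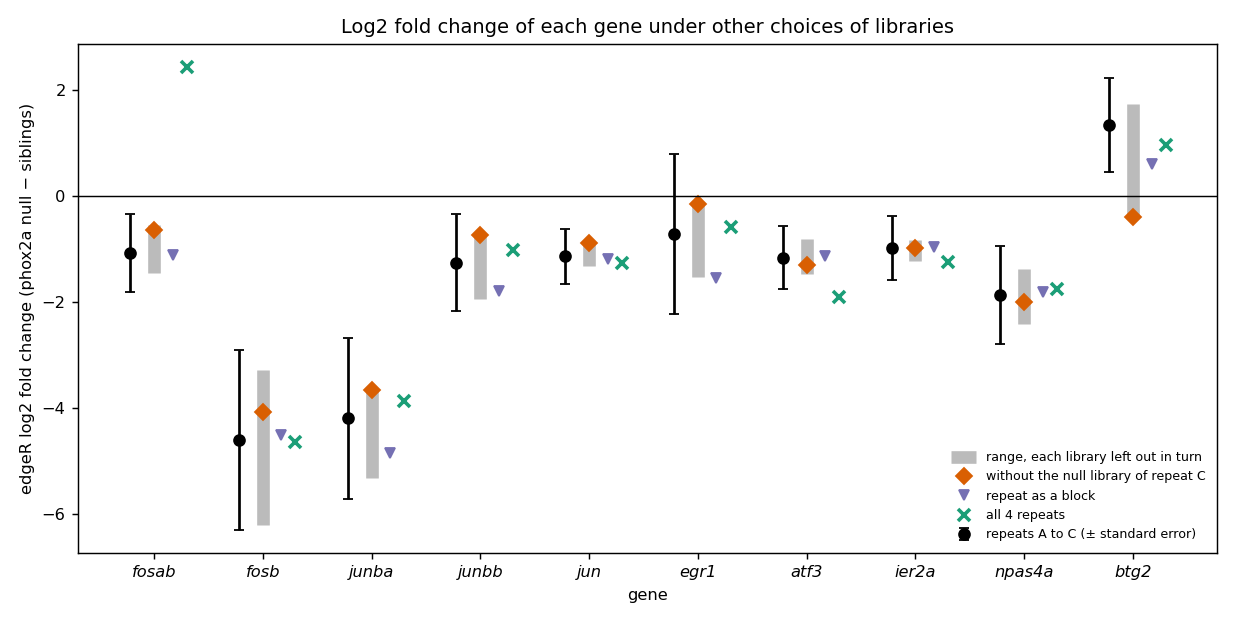
Log2 fold change of *phox2a* null larvae over siblings (vertical axis) for each gene in repeats A to C, with its standard error, beside the values without null C, with the repeat as a block and with all 4 repeats, and the range when each library is left out in turn (gray). *fosb* and *junba* stay below -3 throughout the gray ranges, and *btg2* crosses 0.

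Markers of other cells were summed in the same libraries. Of 8 non-neuronal lists, 2 had groups that did not overlap. Erythroid markers reached 13.0 to 82.3 normalized CPM in null libraries and 0.435 to 8.88 in sibling libraries. In null C they came from *cahz* with 403 reads, and no globin gene of the list had more than 48 reads in any library. Glial markers reached 616 to 1021 normalized CPM in null libraries and 374 to 609 in sibling libraries. In CPM of gene reads, without the TMM factors, they overlapped at 464 to 1130 in null libraries and 451 to 675 in sibling libraries. Within the glial list *gfap* had at most 24 reads in any library, while *plp1b* had 3657 to 9508 in repeats A to C. *mbpa* had 7250, 149 and 0 reads in null larvae of repeats A, B and C, against 2526, 0 and 0 in siblings. Skin markers ranged over 4.58 to 5358 normalized CPM in null libraries, the highest in null C, and 59.7 to 2953 in sibling libraries. Within that list *epcam*, singled out after its values were seen, had 254, 6 and 28 reads in null larvae of repeats A, B and C. Siblings had 1828, 1035 and 3301, a log2 fold change of -3.85 (edgeR unadjusted p = 0.0143). The reads of the other skin genes overlapped between the genotypes, and *krt8* (2713 reads) and *cyt1* (8382 reads) were highest in null C. In the hair cell list *otofb*, also picked out afterwards, went the other way. Its null reads were 221, 65 and 40 against 1, 0 and 0, a log2 fold change of 8.52 (edgeR unadjusted p = 0.00355). The reads of the other hair cell genes overlapped between the genotypes, and *cdh23* had 54, 138 and 0 against 70, 56 and 145. The hair cell list summed to 8.13 to 29.5 normalized CPM in null libraries and 2.68 to 9.91 in sibling libraries. Neither *epcam* nor *otofb* was called after adjustment. Microglia and macrophage markers reached 0.610 to 97.4 normalized CPM in null libraries and 29.4 to 168 in sibling libraries, nearly all from *apoeb*, and the defining markers *mpeg1.1*, *csf1ra* and *p2ry12* had at most 6 reads in any library. The part of these cells in the levels of the 10 genes was not tested.

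The wider response was read from 109 further genes in 5 lists, of which 104 had a row and 89 were tested. These lists too were chosen with earlier results of these data known, so the shares below are not independent of those results. Of the 89, 59 (66.3%) had a negative and 30 a positive log2 fold change, with a median of -0.38. Of all genes tested 55.9% had a negative value, and their median was -0.15. At an unadjusted p under 0.05 in edgeR 1 gene was lower, as were 0.762% of all genes tested, and 1 was higher, as were 2.46%. None was called after adjustment, and the smallest adjusted p was 1.00. In 15 of the 89 genes (16.9%) every null library was below every sibling library, against 7.52% of all genes. In a fit that blocks on the repeat, the median was -1.23 for the 89 genes and -0.56 for all genes. Of the 89, 68 then had a negative value, as had 65% of all genes, and 2 were lower at an unadjusted p under 0.05, as were 0.391% of all genes.

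Of 6 other AP-1 genes tested, 3 (50%) had a negative log2 fold change and 1, *fosl1a*, passed the unadjusted test. *fosl1a* encodes the Fos-related protein Fra-1. It had 24, 2 and 0 reads in null larvae of repeats A, B and C, against 742, 157 and 544 in siblings, and the groups did not overlap. The mean was 0.466 ± 0.705 normalized CPM in null larvae and 21.8 ± 13.3 in siblings (SD, n = 3 each). Its log2 fold change was -5.44 (SE 1.75, edgeR unadjusted p = 0.0137, adjusted p = 1.00). DESeq2 called it, with an adjusted p of 0.0162, and its adjusted p lay between 0.000234 and 0.174 with a block for the repeat or each library left out. It was not called without sibling A (0.174) or sibling C (0.151). *jund*, the Jun family member with the steadiest expression in many tissues, averaged 328 ± 470 normalized CPM in null larvae and 78.4 ± 30.8 in siblings (SD, n = 3 each). That mean rested on 870 normalized CPM in null C. The log2 fold change of 2.06 was 1.09 with gene reads alone and turned to -0.49 without null C.

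Of 23 other immediate early regulators, 17 (73.9%) had a negative and 6 a positive log2 fold change, against 55.9% negative among all genes tested. *ier2b*, the copy of *ier2a*, was the gene higher at an unadjusted p, with a log2 fold change of 2.94 (SE 1.25, edgeR unadjusted p = 0.0457, adjusted p = 1.00). Its levels were 25.2, 17.7 and 438 normalized CPM in null larvae of repeats A, B and C, against 23.7, 12.2 and 26.8 in siblings. With gene reads alone the log2 fold change was 1.92. Without null C it was 0.02, so the difference was not seen without that library. *ier5*, with the highest CPM in its list, averaged 676 ± 130 normalized CPM in null larvae and 650 ± 189 in siblings (SD, n = 3 each), a log2 fold change of 0.06 (SE 0.45). *ier5l* had every null library above every sibling library, with a log2 fold change of 0.56 (SE 0.49, edgeR unadjusted p = 0.281), an order that 3.09% of all genes showed.

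**Figure D5:**
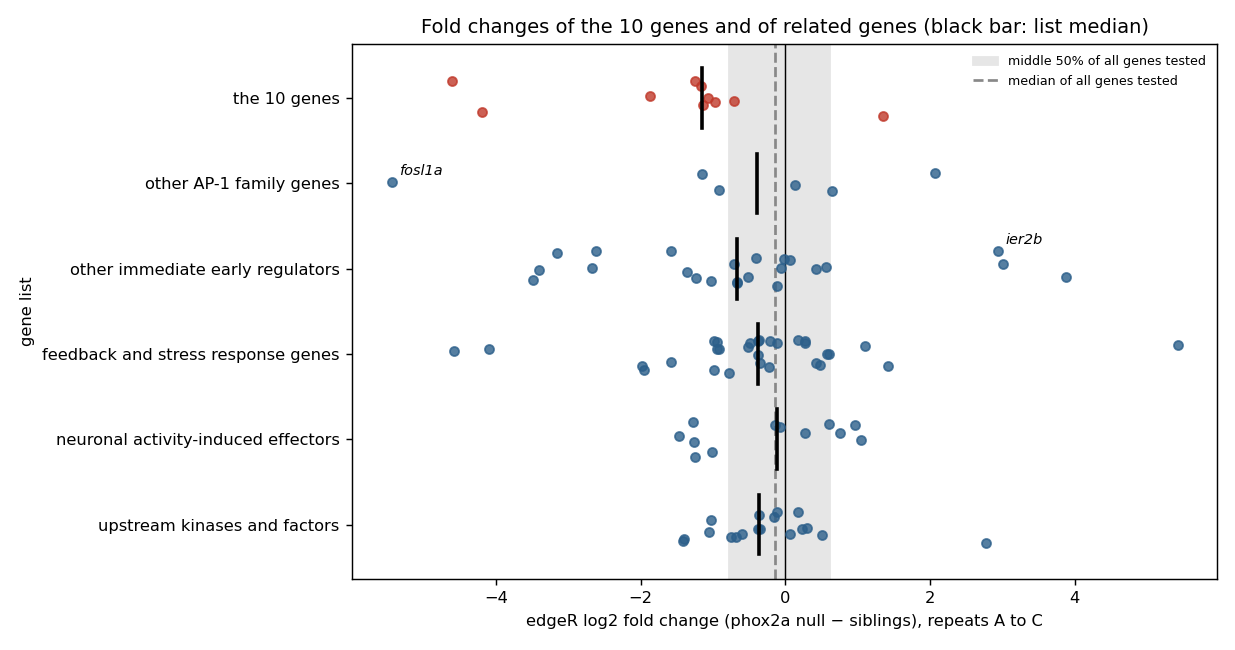
EdgeR log2 fold change of *phox2a* null larvae over siblings (horizontal axis) for the 10 genes (red) and for 89 related genes in 5 lists (blue), with black bars at list medians, the gray band over the middle 50% of all genes tested and the dashed line at their median. The list medians of related genes lie between -0.67 and -0.11, and only *fosl1a* and *ier2b* had an unadjusted p under 0.05.

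Feedback and stress response genes code for phosphatases, RNA-binding proteins and other limits on the response. Among 30 tested, 20 (66.7%) had a negative and 10 a positive value, against 55.9% negative among all genes tested. *btg1*, a BTG family relative of *btg2*, averaged 218 ± 7.78 normalized CPM in null larvae and 256 ± 61.8 in siblings (SD, n = 3 each), a log2 fold change of -0.23 (SE 0.47). The clock gene *per1b* had a log2 fold change of -0.21 (SE 0.47), and *ddit3*, which encodes the endoplasmic reticulum stress factor CHOP, of 0.27 (SE 0.49). None of these 3 differences exceeded its standard error.

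Among 12 neuronal effectors, 7 values (58.3%) were negative, near the 55.9% of all genes tested, and 5 were positive. None had an unadjusted p under 0.05 in edgeR. *scg2b*, coding for a granin of secretory vesicles, averaged 723 ± 536 normalized CPM in null larvae and 474 ± 92.9 in siblings (SD, n = 3 each), a log2 fold change of 0.61 (SE 0.60) that turned to -0.19 without null C. The vesicle protein gene *syt4* had a log2 fold change of -0.08 (SE 0.46), and *adcyap1b*, which encodes the neuropeptide PACAP, of 0.27 (SE 0.59). In all, 8 of the 12 effectors (66.7%) were lowest in sibling B among siblings, against 37.2% of all genes tested. The same share, 4 of 6, was lowest there among other AP-1 genes, and 41 (46.1%) among all 89 related genes. Of the 10 immediate early genes 5 were lowest there, while *junba* and *jun* were highest there. Sibling C was the highest sibling library for 9 of the 12 effectors (75%), against 32.7% of all genes tested. It was the highest for 41 (46.1%) of the 89 related genes.

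The 18 upstream kinases and factors had 12 negative (66.7%) and 6 positive values, against 55.9% negative among all genes tested. *creb1a*, the calcium-responsive factor CREB, had every null library below every sibling library, with a log2 fold change of -0.60 (SE 0.58, edgeR unadjusted p = 0.329). *mapk3*, which encodes ERK1, had a log2 fold change of -0.75 (SE 0.77), and the calcium-dependent kinase gene *camk4* of 0.30 (SE 0.59). The largest of these shifts, that of *mapk3*, was smaller than its standard error, and it was -0.28 without null C.

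Leaving out null C, 8 of the 89 related genes were lower and none higher at an unadjusted p under 0.05 in edgeR. All their adjusted p were 1.00. Of the 16687 genes tested in that fit, 387 (2.32%) were lower and 288 higher. The count of related genes depended on the libraries used. It was 4 lower and 0 higher with repeats A and B only, against 319 and 263 of 15993 genes tested in that fit. Without null A it was 7 and 4, against 639 and 765 of 16170 genes. Without null B it was 1 and 4, against 181 and 840 of 16184. Without sibling A it was 0 and 1, against 112 and 169 of 15899. With all 4 repeats, where 85 related genes were tested, it was 0 and 3, against 31 and 414 of 13260. The 8 of the fit without null C, named here after their values were seen, were *fosl1a*, *nr4a1*, *cebpd*, *dusp2*, *dusp5*, *plk3*, *pcsk1* and *ptgs2a*. *nr4a1* encodes an inducible nuclear receptor and had 268 and 356 reads in null larvae of repeats A and B, against 993, 826 and 2608 in siblings of A, B and C. *dusp5*, a phosphatase that acts on ERK, had 37 and 0 reads in null larvae of A and B, against 368, 348 and 377 in siblings. *ptgs2a* encodes the inducible cyclooxygenase and had 0 and 1 reads in null larvae of A and B, against 362, 57 and 1649 in siblings. In null C, *ptgs2a* instead had 936 reads and *nr4a1* 821, so that with this library included the groups overlapped for *ptgs2a* and *nr4a1*. The log2 fold changes over repeats A to C were -0.02 for *nr4a1* and 0.96 for *ptgs2a*.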

How the data were processed

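Hindbrain vestibular neurons of zebrafish larvae were sorted and libraries were made with the SMART-Seq HT kit. The authors deposited counts, whole reads per gene and library, over 28807 rows. Per the labels the build was GRCz11 and DESeq2 was used. The aligner, the counter and the strand setting are not given in the sources used here. The deposited normalized table, which is those counts over 1 factor per library, was not used. The 5 rows that name no gene held 41.2% to 98.1% of the listed reads and stayed out of library sizes. Columns match a genotype and a run code, and 0 columns belonged to no group.

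The 3 null and 3 sibling libraries of repeats A to C were compared in R 4.3.3 with the quasi-likelihood test of edgeR 4.0.16 after filterByExpr and TMM, with Benjamini-Hochberg adjustment over all genes tested. All 10 genes passed the filter. Normalized CPM are gene reads scaled to counts-per-million with TMM factors, 0.518 for the null library of repeat C and 1.10 to 1.22 for the others. A gene at 0 reads was bounded at 3 reads per library, for counting error only. Each standard error is the fold change over the root of its F statistic. Alternatives were DESeq2 1.42.0, other size factors, no filter, a block for the repeat, adding repeat D, repeats A and B only, and each library left out in turn. The code was tested on simulated data. A pass was required only at a dispersion of 0.1, with 200 genes changed by 3 on the log2 scale. It therefore does not measure how many true differences would be missed in these data.

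The 10 genes and the lists were chosen with earlier results of these data known. Besides the 10, the text names the 3 genes of highest mean CPM in each list, every listed gene with an unadjusted edgeR p under 0.05, *phox2a*, and the 10 genes whose centered log2 profile was closest to the mean of the 10. The design states that each repeat gave both samples, and deviations from the group means of the 2 libraries of a repeat correlated at 0.03, 0.08 and 0.05 in A, B and C over 14824 genes.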

Additional observations from a re-analysis of the deposited data

Results flagged for a closer look

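The null library of repeat D, which entered only the alternative fit with all 4 repeats, had reads of *fosab*. They were 269, or 366 CPM of gene reads, against 0.126 CPM in the sibling library of that repeat. *fosab* ranked 84 among the 2214 genes with reads there. In this null library 95.4% of the listed reads had not been aligned, and 50 genes held 93.15% of the gene reads. The same library had 0 reads for 7 of the 10 genes. The Dixon criterion, applied to each of the 10 genes in each genotype over the 4 repeats in CPM of gene reads, marked 0 of 20 groups, which does not show that no library stands apart.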

How the results depend on the processing

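No gene was called under any alternative in edgeR with repeats A to C, or when any library was left out (0 to 0). DESeq2 called 128 genes and all 4 repeats in edgeR called 40. The replicate block, which treats each repeat as a pair, moved the median of related genes to -1.23, changed no call in edgeR and moved the median of all genes from -0.15 to -0.56. Its median for the 10 genes was -1.37, as it was with gene reads alone, where the median of all genes was -0.36. With DESeq2 the median of all genes was 0.0344. Over all 13 alternatives 8 to 10 of the 10 genes had a negative value, as had 49% to 66.6% of all genes. The median of the 10 lay between -1.41 and -0.89. The alternatives reuse the libraries that chose the genes, so nothing is read from this steadiness.

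Single log2 fold changes turned or moved as follows, the cause being untested. With all 4 repeats they were 2.44 for *fosab*, 2.64 for *per1b*, -0.00132 for *ier5* and -0.37 for *ddit3*. With repeats A and B only, chosen after seeing the data, they were 0.0466 for *egr1*, -0.20 for *btg2*, -0.12 for *jund*, -0.70 for *jdp2b*, 0.27 for *nfil3*, -0.0281 for *ddit3* and -0.0436 for *scg2b*. With gene reads alone they were -0.31 for *jdp2b*, -0.00697 for *maff*, -0.27 for *ier5*, -0.18 for *ddit3*, -0.0243 for *scg2b*, -0.21 for *adcyap1b* and -0.0121 for *camk4*. With the replicate block they were -0.11 for *jdp2b* and -0.0646 for *maff*. RLE size factors gave 0.0615 and DESeq2 0.0553 for *syt4*, and no filter gave -0.00978 for *ier5*. Leaving out each library gave -1.46 to -0.54 for *fosab*, -1.94 to -0.73 for *junbb*, -1.53 to -0.14 for *egr1*, -6.22 to -3.29 for *fosb*, -5.33 to -3.62 for *junba*, -2.41 to -1.37 for *npas4a*, -0.40 to 1.75 for *btg2*, -0.49 to 2.57 for *jund*, -1.97 to 1.84 for *jdp2b*, -0.56 to 0.54 for *maff*, -0.19 to 0.26 for *ier5*, -0.80 to 0.42 for *nfil3*, -0.19 to 0.95 for *scg2b*, -0.12 to 0.58 for *adcyap1b* and -0.0880 to 0.55 for *camk4*.

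Limits are 3 libraries a genotype, pooled larvae, a null library of repeat C with few genes detected, and 10 genes chosen on the same contrast. A level near 0 in that library cannot be told apart from a gene that the library missed. Despite its 9579375 gene reads, 18.8% of genes with a sibling mean of at least 10 normalized CPM had 0 reads there.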

Other observations

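Outside the list, 10 genes had log2 profiles over the 6 libraries closest to the mean profile of the immediate early genes, by root mean square difference among 9162 genes with a mean of at least 10 CPM. They were *fntb*, *erbin*, *si:dkey-72l14.4*, *pcsk1*, *gatad1*, *dhx40*, *GARNL3*, *htt*, *nae1* and *mtmr6*, with differences of 0.173 for *fntb* to 0.371 for *mtmr6* on the log2 scale. *fntb*, which encodes a subunit of protein farnesyltransferase, stood at 17.5, 11.3 and 4.06 normalized CPM in null larvae of repeats A, B and C, against 28.3, 24.8 and 53.6 in siblings. *pcsk1*, which encodes a prohormone convertase, stood at 15.3, 20.1 and 4.27 normalized CPM in null larvae, against 33.4, 33.6 and 43.3 in siblings. Closest to that mean among the 10 immediate early genes was *fosab*, with a difference of 0.518, and 77 other genes were closer. Farthest from it among the 10 was *egr1*, at 2.18.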
